A study of Mus musculus with 4 samples.

Results

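Of 10 genes that mark or build mouse primordial germ cells, the embryonic precursors of eggs and sperm, only Tfap2c had a probe set that passed the test in whole embryos lacking the orphan nuclear receptor Nr6a1, formerly called Gcnf. Its 3 probe sets were 1.98-fold to 2.75-fold higher in mutants, in both mutant embryos, and 1 of them passed. The other genes were Dppa2, Dppa3, Dppa4, Prdm1, Prdm14, Ifitm3, Kit, Dnd1 and Alpl, and none of their probe sets passed. Members were chosen by name, with earlier results of these data known. Every probe set that the platform annotation gave to 1 of these symbols alone was taken, which gave 14 probe sets among the 45037 tested and covered 10 of 10 genes.

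The values came from Affymetrix Mouse Genome arrays hybridised with RNA from whole embryos labelled embryonic day 9.0, 1 array per embryo. There were 2 wildtype embryos (genotype label wt) and 2 homozygous mutants (label Gcnf-/-). The mutation is carried in all tissues, with no Cre or other agent, and the methods describe genotyping from yolk sac. Embryos without the receptor are known to develop slowly and to die in mid-gestation, so that genotype and developmental progress cannot be told apart. The study's methods give a collection window that extends later than the label, and the somite number of each embryo is not given in the sources used here. Signals are on the log2 scale, from the authors' RMA (robust multi-array average) processing, and a difference of 1 is a 2-fold change.

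Primordial germ cells are set aside from the posterior epiblast under BMP signals from neighbouring extraembryonic tissue. Prdm1, Prdm14 and Tfap2c then repress the somatic programme and restore pluripotency genes, and the cells move through the hindgut towards the future gonads, kept alive by Kit signalling. At the stage sampled they are a very small share of a whole embryo. Most of the genes are also expressed elsewhere, Tfap2c in trophoblast and surface ectoderm, Kit in blood progenitors and melanoblasts, Alpl, Prdm1 and Ifitm3 in several tissues. In RNA from a whole embryo, a different number of expressing cells and a different amount of RNA per cell cannot be told apart.

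Across the arrays, replicates correlated more closely (Pearson r 0.997 for wildtype and 0.998 for mutants, across probe sets) than arrays of different genotype (0.993 to 0.995). By Xist and Y-linked signals, wildtype replicate 1 was female and the other embryos male. It also had the lowest poly-A spike signal (9.61, against 10.30 to 10.38), and 18S ribosomal RNA control probe sets read 1.06 higher in mutants on the log2 scale. The part of these differences in the results was not tested. The 5 Nr6a1 probe sets were 0.05 to 0.56 higher in mutants and none passed. Where they lie relative to the deleted part is not known here, so they check nothing about the genotype labels. Markers of the labelled tissue, the embryo, were bright: Meox1 of somites read 9.60 to 10.47, Myh6 of heart muscle 10.71 to 11.68, Pax6 of the neural tube 9.09 to 9.46 and Pax3 8.94 to 9.23, with Tbx6 of presomitic mesoderm at 7.75 to 8.61. These ranges pool the genotypes. Mutants differed from wildtype by -0.62 in Meox1, 0.63 in Myh6, -0.14 in Pax6, 0.22 in Pax3 and 0.71 in Tbx6 (log2, brightest probe sets). None of these passed.

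Genotypes were compared with limma across all probe sets. A probe set was called when its adjusted p was 0.05 or lower and its change at least 2-fold, the thresholds of the study. Of the 14 germ cell probe sets 1 was called, as higher in mutants, against 0.382% of all probe sets called in either direction and 0.304% called higher. Whatever their fold, 2 of 14 had an adjusted p of 0.05 or lower, against 0.975% of all. Both belong to Tfap2c. The smallest two-sided p that exact permutation of 2 against 2 arrays allows is 0.333, and each call rests on the spread that limma shares across probe sets.

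Tfap2c encodes AP-2 gamma, a transcription factor that acts with Prdm1 and Prdm14 in germ cell specification. Its second brightest probe set read 6.76 and 6.96 in wildtype and 8.35 and 8.30 in mutants. It rose by 1.46 ± 0.09 on the log2 scale, or 2.75-fold (moderated SE, n = 2 embryos per genotype, limma adjusted p = 0.0136, 95% interval 1.23 to 1.69). Both mutants lay above both wildtype embryos by 1.34, against gaps of 0.20 and 0.05 between embryos of the same genotype.

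The brightest Tfap2c probe set read 7.28 and 7.59 in wildtype and 8.36 and 8.48 in mutants, a difference of 0.99 ± 0.12 or 1.98-fold (adjusted p = 0.0458), just short of 2-fold. The dimmest read 6.49 and 6.56 against 7.78 and 7.39, a difference of 1.06 ± 0.14 or 2.09-fold that just missed on its adjusted p (0.0507). The genotypes did not overlap in any of the 3. The probe sets therefore shared their direction and fell on different sides of the threshold, and the one called carries the _s_at suffix that Affymetrix gives to probes matching more than 1 transcript, as does the brighter probe set of Dppa2. Averaged into a single value, Tfap2c rose by 1.17 and was called (limma across genes, adjusted p = 0.0110). The called probe set lost its call when any 1 array was left out, at an adjusted p of 0.158 without wildtype replicate 1, 0.0680 without wildtype replicate 2, 0.171 without mutant replicate 1 and 0.162 without mutant replicate 2, while its difference stayed between 1.36 and 1.56. Over all probe sets, 172 calls became 0 to 9 in the same way.

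**Figure D1:**
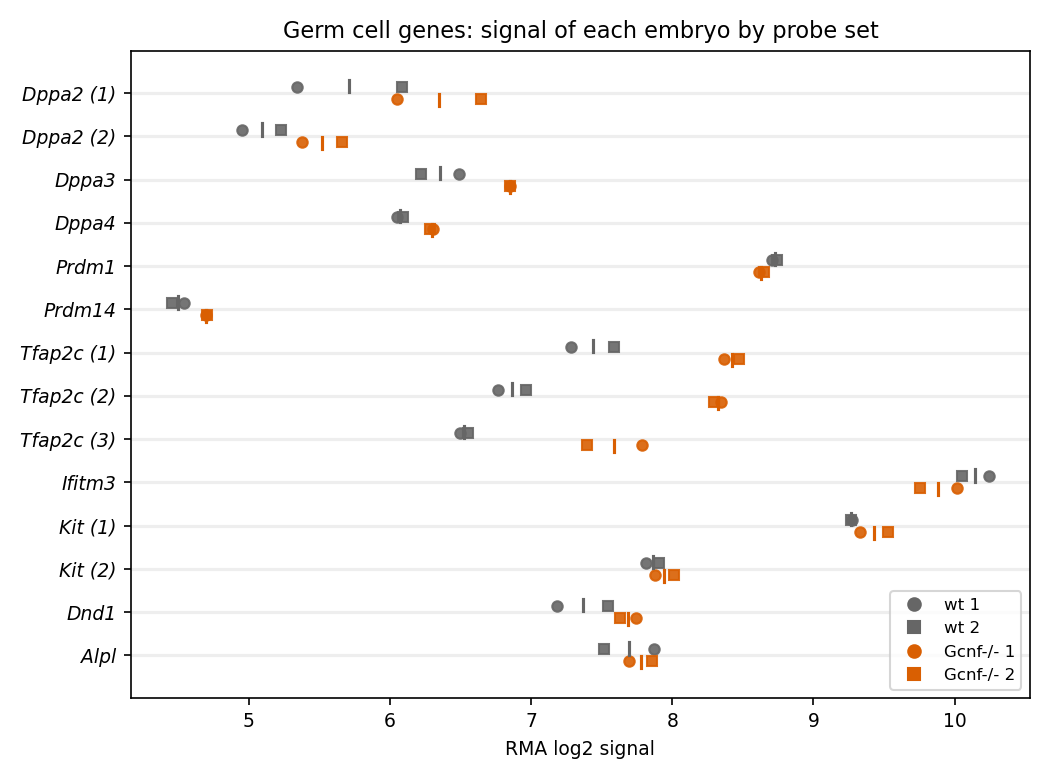
Signal per embryo (horizontal axis, RMA, log2) for the 14 germ cell probe sets (rows, numbered from the brightest where a gene has several). Grey is wildtype, orange Gcnf-/-, circles and squares are replicates 1 and 2 and short vertical bars are group means. The Tfap2c rows show the widest gaps, and levels cannot be compared between rows because probe sets differ in brightness.

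The other regulators of germ cell fate were not called. Prdm1, which encodes Blimp1, the zinc finger repressor that starts the germ cell programme, read 8.71 and 8.74 in wildtype and 8.61 and 8.65 in mutants. This is a difference of -0.09 ± 0.07 (adjusted p = 0.508) with a 95% interval from -0.27 to 0.08, so that a mutant level below 0.830 or above 1.06 times wildtype lies outside it. Mutants were just below wildtype without overlap, by a margin of 0.06, against gaps of 0.04 and 0.03 within the genotypes.

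Prdm14, a PR domain factor that lowers DNA methylation and supports the return of pluripotency genes, had the dimmest probe set of a germ cell gene. It read 4.54 and 4.45 in wildtype and 4.69 and 4.70 in mutants, a difference of 0.20 ± 0.07 (adjusted p = 0.213). For scale, 4 Y-linked probe sets that read 7.55 to 9.52 in the 3 male embryos read 3.27, 3.42, 4.25 and 5.83 in the female, which has no Y chromosome. These were picked after their values were seen and differ in probes from Prdm14. The Prdm14 signal in all 4 embryos lay within that range, but above all of these probe sets except the brightest, a Uty probe set. At such brightness a transcript too scarce to measure is not distinguishable from one that is absent, and a fold change is understated.

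The developmental pluripotency associated genes were each a little higher in mutants, and none was called. Dppa3, also known as Stella, a chromatin factor used to mark the first germ cells, read 6.49 and 6.22 in wildtype and 6.85 and 6.85 in mutants. The difference was 0.50 ± 0.11, or 1.41-fold (adjusted p = 0.104, 95% interval 0.23 to 0.77). Both mutants exceeded both wildtype embryos by 0.36, and the gap was wider than the 0.27 between the wildtype embryos.

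Dppa2 and Dppa4 are neighbouring genes whose SAP domain proteins act together at early developmental promoters. Dppa4 read 6.05 and 6.09 in wildtype and 6.30 and 6.28 in mutants, a difference of 0.23 ± 0.07 or 1.17-fold (adjusted p = 0.168). The genotypes were parted by 0.20, more than the 0.04 within wildtype and 0.02 within mutants. The brighter Dppa2 probe set read 5.34 and 6.09 in wildtype and 6.05 and 6.65 in mutants, and its genotypes overlapped. Its difference of 0.64 ± 0.31 (adjusted p = 0.326, 95% interval -0.14 to 1.41) was 0.26 without wildtype replicate 1 and 1.01 without wildtype replicate 2. The dimmer one read 4.95 and 5.23 against 5.37 and 5.66, a difference of 0.43 ± 0.14 (adjusted p = 0.193) with no overlap. Dppa2 signals of this second probe set also lay within the range of the Y-linked probe sets in the female, but above all of these except the brightest. The brighter Dppa2 probe set did so in wildtype replicate 1.

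**Figure D2:**
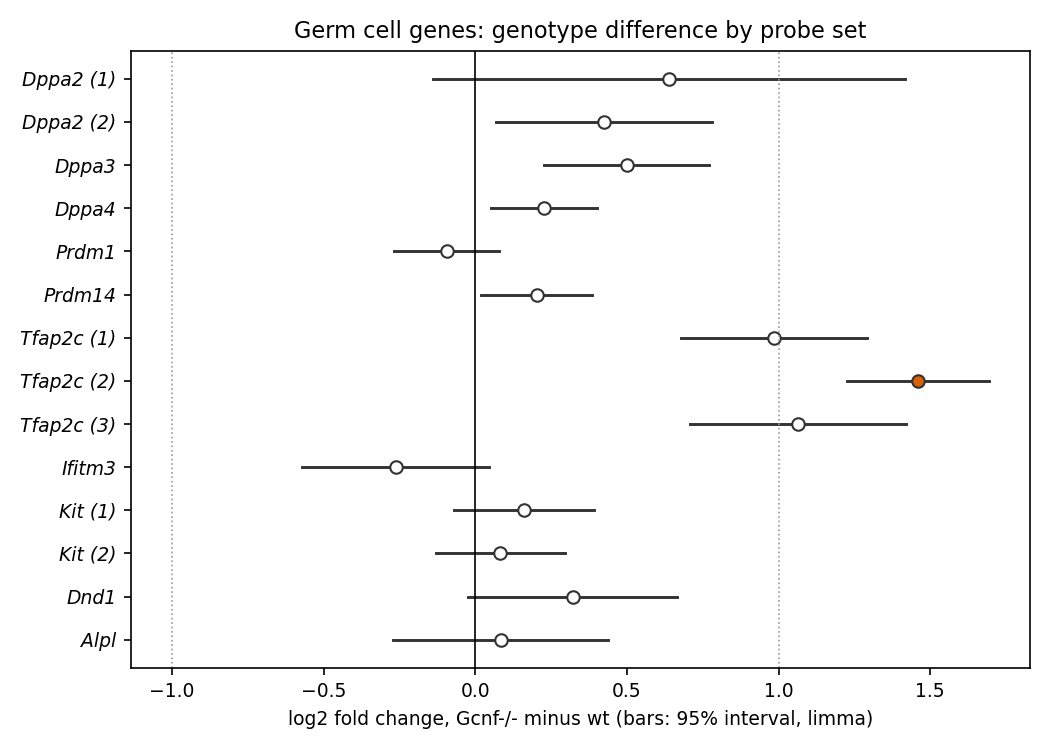
Log2 fold change (horizontal axis, Gcnf-/- minus wt, n = 2 embryos per genotype) of the 14 germ cell probe sets, with 95% intervals from limma as bars. The filled point passed the threshold and dotted lines mark 2-fold. Tfap2c runs from 0.99 to 1.46, and the other probe sets from -0.26 to 0.64.

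Among genes for membrane proteins of germ cells, Ifitm3 lay lower in mutants and Kit and Alpl near wildtype. Ifitm3, or Fragilis, an interferon-induced membrane protein of epiblast cells competent to form germ cells, read 10.24 and 10.05 in wildtype and 10.02 and 9.75 in mutants. The difference was -0.26 ± 0.12 (adjusted p = 0.309, 95% interval -0.57 to 0.04), and the genotypes were parted by only 0.04, less than the 0.19 and 0.26 within them. Its relatives Ifitm1 and Ifitm2 lay the other way. Ifitm1 read 12.26 and 12.56 in wildtype and 13.14 and 13.31 in mutants, 0.81 ± 0.13 higher (adjusted p = 0.0630). Ifitm2 was 0.34 ± 0.08 higher (adjusted p = 0.111). None of the 3 was called, and the contrast between them was not tested.

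Kit, the receptor tyrosine kinase for Kit ligand, read 9.27 and 9.27 in wildtype and 9.33 and 9.53 in mutants on its brighter probe set, a difference of 0.16 ± 0.09 (adjusted p = 0.397). The dimmer one read 7.82 and 7.90 against 7.88 and 8.01, and its genotypes overlapped (0.08 ± 0.08, adjusted p = 0.649). The intervals of the 2 probe sets, -0.07 to 0.39 and -0.13 to 0.29, hold no change of 2-fold. The ligand gene Kitl read 10.36 and 10.33 in wildtype and 10.37 and 10.27 in mutants, a difference of -0.03 ± 0.07 (adjusted p = 0.888).

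Dnd1 encodes an RNA-binding protein without which germ cells are lost. It read 7.18 and 7.54 in wildtype and 7.74 and 7.63 in mutants, a difference of 0.32 ± 0.14 (adjusted p = 0.275). The genotypes were parted by 0.08, less than the 0.36 between the wildtype embryos, and the difference was 0.14 without wildtype replicate 1 and 0.50 without wildtype replicate 2.

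Alpl, tissue-nonspecific alkaline phosphatase, whose enzyme activity is the classic stain for germ cells, read 7.87 and 7.51 in wildtype and 7.69 and 7.86 in mutants. The genotypes overlapped fully. Its difference of 0.08 ± 0.14 (adjusted p = 0.800, 95% interval -0.27 to 0.44) turned to -0.09 without wildtype replicate 2.

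**Figure D3:**
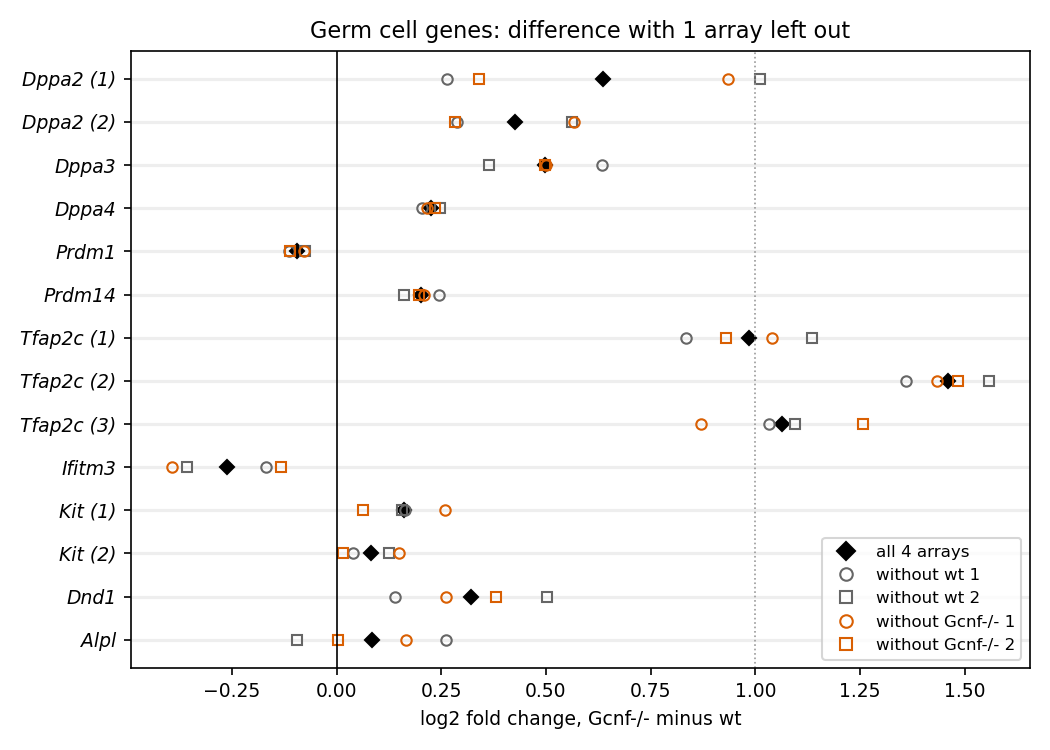
Log2 fold change (horizontal axis, Gcnf-/- minus wt) of each germ cell probe set with all 4 arrays (black diamonds) and with 1 array left out (open symbols). The 3 Tfap2c probe sets stay between 0.83 and 1.56, whereas the brighter Dppa2 probe set runs from 0.26 to 1.01 and Alpl crosses 0.

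Nr6a1 binds direct repeats of the half-site AGGTCA without a spacer and the extended half-site TCAAGGTCA, and is known to repress Pou5f1 (Oct4) through its promoter. RefSeq promoter windows (GRCm38.p6), from 250 bases before to 50 after an annotated start, matched 4 of the 10 genes, Alpl, Kit, Ifitm3 and Prdm1, with 6 windows. Dppa2, Dppa3, Dppa4, Prdm14, Tfap2c and Dnd1 were not matched. On either strand, AGGTCA stood in 1 of the 6 windows, the downstream start of Alpl at chr4:137766426-137766725 on the minus strand, 31 bases before the start, and in 16.3% of all 32851 windows. TCAAGGTCA, which contains the half-site, was in 0 of the 6 and 0.423% of all, and the full direct repeat, which contains both, in 0 of the 6 and 0.00609% of all. The Alpl window is shown beside a Pou5f1 window at chr17:35505782-35506081 on the plus strand. Both hold 1 exact half-site, here in capitals, about equally far from the start (33 bases before it in Pou5f1). Only Pou5f1 of this pair was called in mutants. The sites differ in the bases that follow, AGGCTA in Pou5f1 and CAGCCA in Alpl. Only exact letters were searched, so an imperfect repeat was not counted. The other Pou5f1 window, at chr17:35508557-35508856, held 0 half-sites. What these sites do was not tested.

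Alpl: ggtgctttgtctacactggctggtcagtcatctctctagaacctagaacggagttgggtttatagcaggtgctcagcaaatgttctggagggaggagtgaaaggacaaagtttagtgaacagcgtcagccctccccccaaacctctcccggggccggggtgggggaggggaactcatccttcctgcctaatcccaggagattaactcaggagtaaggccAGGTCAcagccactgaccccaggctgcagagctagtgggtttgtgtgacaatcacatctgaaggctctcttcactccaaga
Pou5f1: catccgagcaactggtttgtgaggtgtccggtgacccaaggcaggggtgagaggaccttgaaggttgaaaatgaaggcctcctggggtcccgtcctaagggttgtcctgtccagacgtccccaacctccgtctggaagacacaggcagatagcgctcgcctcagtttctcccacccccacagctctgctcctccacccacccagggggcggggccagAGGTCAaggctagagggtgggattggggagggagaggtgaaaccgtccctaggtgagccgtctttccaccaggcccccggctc

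A match is a match of letters and shows no binding. The AP-2 consensus GCCNNNGGC, the type of site that Tfap2c recognises, stood in 3 of the 6 windows, 1 of Alpl and both overlapping ones of Kit, and in 16.6% of all. Neither gene was called.

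As a set, 12 of the 14 probe sets lay above wildtype, with a median log2 difference of 0.27, against 47.1% of all probe sets above and a median of -0.01. The members were chosen with earlier results of these data known, so the counts here describe the set and test nothing. Tfap2c, Dppa2 and Kit have several probe sets each, so counts of probe sets are not counts of separate genes. In 9 of 14 both mutants exceeded both wildtype embryos, a pattern seen in 23.5% of all probe sets, and in 2, those of Prdm1 and Ifitm3, both lay below, seen in 27.3%. Counted by gene through its brightest probe set, 8 of 10 lay above wildtype with a median of 0.21, against 47.2% of all genes above and a median of -0.01. In 6 of 10 genes both mutants exceeded both wildtype embryos, against 4764 of 18193 genes. In 2 of 10 both lay below, against 5527 of 18193. By limma 0 of 10 genes were called, against 0.544% of 18193 genes, and 4 (Dppa3, Dppa4, Prdm14 and Tfap2c) had an unadjusted p under 0.05, against 4336 of all genes. Robust eBayes and treat called 0 as well, whereas no fold threshold and the mean over a gene's probe sets each called 1, Tfap2c. The probe sets of the 9 genes other than Tfap2c lay between -0.26 and 0.64.

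Partners of the germ cell regulators held the widest differences among the related lists examined. Of 13 measured, 9 were on the higher side in mutants (list median 0.20). Called were 2, both pluripotency factors that germ cells share with the epiblast. Pou5f1 read 5.23 and 5.99 in wildtype and 10.66 and 11.31 in mutants, and rose by 5.38 ± 0.32 (limma adjusted p = 0.0136). Nanog read 3.87 and 4.33 against 7.27 and 7.74, and rose by 3.41 ± 0.22 (adjusted p = 0.0136). Both lost their call with any 1 array left out, at differences of 5.0 to 5.76 for Pou5f1 and 3.17 to 3.64 for Nanog. Nanog in both wildtype embryos, and Pou5f1 in wildtype replicate 1, lay within the range of the Y-linked probe sets in the female. At such brightness a fold change is understated. Dppa5a, another gene of pluripotent and germ cells, read 6.91 and 7.45 against 7.41 and 7.91 and overlapped. Lin28a, an RNA-binding protein that blocks let-7 and is needed for germ cell formation, was at -0.26 ± 0.09 (adjusted p = 0.213). Its dimmer probe set read -0.60 ± 0.24 (adjusted p = 0.256).

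Of the 11 measured signals and effectors that specify germ cells, 0 were called in limma (3 of them at an unadjusted p under 0.05), with a median of 0.03. Over all genes, 4336 of 18193 had such an unadjusted p. Bmp4, the ligand that induces germ cell fate, read 10.70 and 10.90 in wildtype and 11.53 and 11.42 in mutants, 0.67 ± 0.10 higher without passing (adjusted p = 0.0582). Smad1, which relays BMP signals, was at -0.30 ± 0.08 (adjusted p = 0.125) and Otx2, which restricts entry into the germ line, at 0.19 ± 0.07 (adjusted p = 0.236).

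Among later germ line genes the directions were split. Of 6 measured, 3 were on the higher side in mutants (list median -0.01). Called was 1, Sycp3, a component of the meiotic chromosome axis, which read 4.89 and 4.96 in wildtype and 6.78 and 7.07 in mutants and rose by 2.00 ± 0.11 (adjusted p = 0.0133). It too lost its call with any 1 array left out, at 1.86 to 2.14. Wildtype Sycp3 signals also lay within the range of the Y-linked probe sets in the female. Ddx4 (Vasa), an RNA helicase of germ cells, read 6.38 and 7.06 against 6.98 and 7.07 and overlapped. Tex19.1 was at -0.67 ± 0.30 (adjusted p = 0.298).

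Of the 5 measured genes for migration and survival, 1 was on the higher side in mutants (list median -0.17), and limma called 0 (2 at an unadjusted p under 0.05). Fut9, a fucosyltransferase that makes the SSEA1 antigen of germ cells, read 6.29 and 6.32 in wildtype and 5.66 and 5.52 in mutants. It was 1.64-fold lower at an adjusted p of 0.0417, short of 2-fold, and its other probe sets read -0.26 and 0.01. The chemokine gene Cxcl12 was at -0.28 ± 0.08 (adjusted p = 0.155) on its brightest probe set, whereas its other probe sets read 0.15 and 0.01. The Cxcl12 receptor gene Cxcr4, which guides migrating germ cells, was at 0.21 ± 0.09 (adjusted p = 0.271). Of 5 measured genes that germ cell precursors silence, 2 were on the higher side in mutants (list median -0.0033), and 0 were called by limma on their brightest probe set (1 at an unadjusted p under 0.05).

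**Figure D4:**
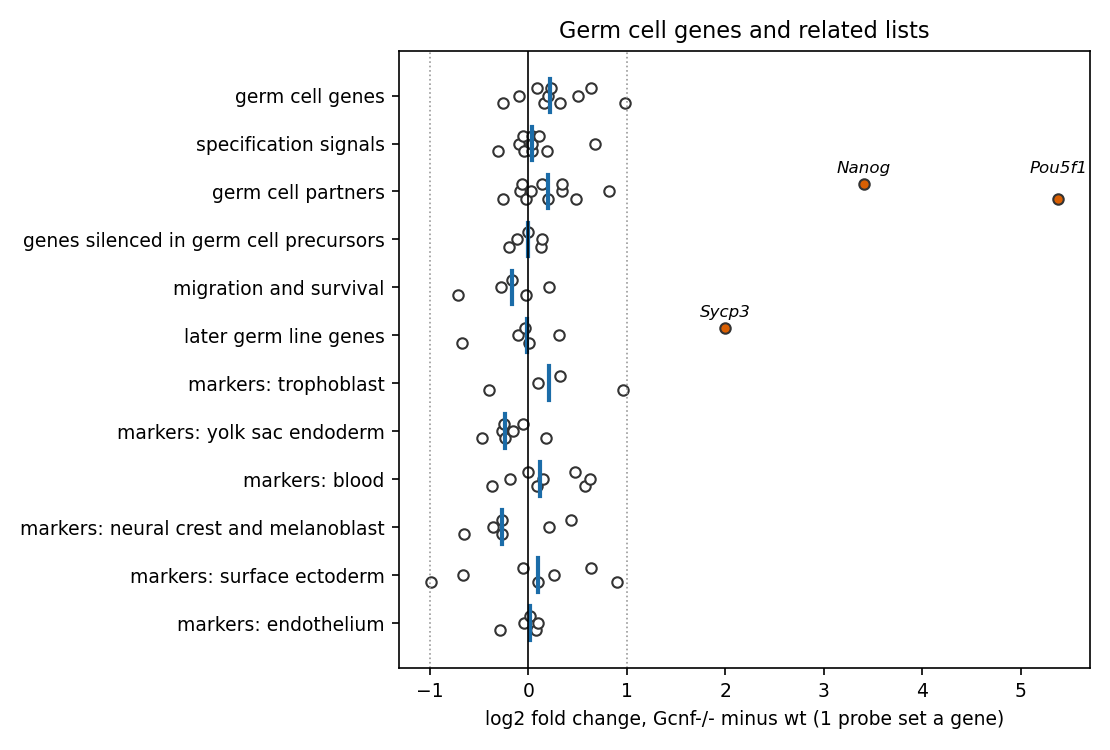
Log2 fold change (horizontal axis, Gcnf-/- minus wt, 1 probe set per gene) of the germ cell genes, the related lists and markers of other cell types (rows). Points are genes, filled where called, blue bars are list medians and dotted lines mark 2-fold. Nanog, Pou5f1 and Sycp3 lie beyond 2-fold, and the germ cell genes have a median of 0.21.

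Markers of other cell types that express Tfap2c or Kit were measured on the same arrays, and none of their brightest probe sets was called. For scale, 47.2% of all genes lay above wildtype, and 4336 of 18193 had an unadjusted p under 0.05 in limma. Of 4 trophoblast markers 3 lay above wildtype (3 at an unadjusted p under 0.05 in limma), and their summed linear signal was 1504 to 1736 in wildtype and 2974 to 3058 in mutants. Most of it came from Plac1, a placental gene, which read 10.40 and 10.64 in wildtype and 11.51 and 11.46 in mutants, 1.95-fold higher at an adjusted p of 0.0378 and short of 2-fold. The trophoblast regulators Ascl2 and Elf5 were at 0.32 ± 0.10 (adjusted p = 0.169) and -0.40 ± 0.15 (adjusted p = 0.226), and the dimmer Elf5 probe set read 0.07. Tpbpa of the spongiotrophoblast read 3.98 to 4.32 in all embryos, a dim signal within the range of the Y-linked probe sets in the female. The part of trophoblast RNA in the Tfap2c difference was not tested.

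Surface ectoderm markers were mixed. Of 7, 4 lay above wildtype (5 at an unadjusted p under 0.05 in limma) with a summed linear signal of 22787 to 23052 in wildtype and 27076 to 27100 in mutants. Most of it came from Krt8 and Krt18, keratin genes of epithelia in general, which were at 0.26 ± 0.07 (adjusted p = 0.140) and 0.09 ± 0.07 (adjusted p = 0.508). The epithelial adhesion gene Epcam was 0.63 ± 0.07 higher at an adjusted p of 0.0414, short of 2-fold, and Grhl3 was at 0.90 ± 0.22 (adjusted p = 0.120). Wnt6 was at -0.66 ± 0.09 (adjusted p = 0.0501). Trp63, which commits ectoderm to epidermis, was at -0.99 ± 0.22 (adjusted p = 0.111) on its brightest probe set, and its other probe sets read -0.13, -0.15 and -0.02. The part of surface ectoderm in the Tfap2c difference was not tested. The related AP-2 gene Tfap2a, a neural crest and ectoderm factor, was at 0.20 ± 0.08 (adjusted p = 0.230).

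Of 6 neural crest and melanoblast markers 2 lay above wildtype, with a summed signal of 1748 to 1803 in wildtype and 1627 to 1701 in mutants. Of 8 blood markers 5 lay above wildtype (summed signal 65811 to 68891 and 73540 to 74216), of 5 endothelial markers 3 (2621 to 2680 and 2636 to 2643), and of 7 yolk sac endoderm markers 1 (84760 to 92343 and 74842 to 83940). In these 4 lists 0 genes were called by limma, and 4, 4, 1 and 2 had an unadjusted p under 0.05 in the order given. Their differences ran from -0.65 (Sox10) to 0.43 (Mitf) in neural crest, from -0.37 (Ptprc) to 0.63 (Gata1) in blood, from -0.29 (Tie1) to 0.10 (Kdr) in endothelium and from -0.47 (Hnf4a) to 0.18 (Amn) in yolk sac endoderm. RMA values have no 0, so that no marker is listed as absent.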

How the data were processed

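Total RNA of whole embryos was hybridised to Affymetrix Mouse Genome arrays, 1 per embryo. The authors deposited log2 signals made with RMA, which corrects background, normalises between arrays and summarises the probes of a set. The version of their software is not given in the sources used here. RMA compresses the fold change of dim transcripts, and array data carry no read depth, so that precision is limited by the 2 arrays per genotype. Of 45101 probe sets, 64 controls were left out. The platform annotation gave a single symbol to 34945 of the 45037 tested, several to 932 and none to 9160, and sets with several were not named.

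Genotypes, taken from the labels, were compared in R 4.3.3 with limma 3.58.1 (lmFit and eBayes, genotype as the only term), with Benjamini-Hochberg adjustment over all probe sets. Counts by gene took the probe set of highest mean signal from the same fit, with its adjusted p over all probe sets. The mean over a gene's probe sets was fitted and adjusted across genes. Calls were made at 2-fold or more where the adjusted p did not exceed 0.05. All germ cell genes were named, and of each related list the called genes and up to 4 with the smallest p, and of each marker list the called genes and those needed for its range. Dppa5a, Lin28a, Kitl, Dnmt3a, Ascl2, Tpbpa, Epcam, Krt8, Krt18, Wnt6 and Tfap2a were named besides, for their role or probe sets, after their values were seen. The members and lists were chosen with earlier results of these data known. Some genes of the related and marker lists were not analysed here. Summed signals are sums of linear values, 1 probe set per gene. Alternatives were leaving out each array, the replicate number as a block, a brightness filter, renewed quantile normalisation, median centring, a mean-variance trend, robust eBayes, no fold threshold, treat, the mean over probe sets and, by gene, only probe sets without shared sequence (no _s_at, _x_at or _a_at suffix). The same alternatives for the related lists were chosen after seeing the data.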

Additional observations from a re-analysis of the deposited data

How the results depend on the processing

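The call of 1 germ cell probe set became 2 with a filter to bright probe sets, with renewed quantile normalisation, with median centring, with a mean-variance trend and with no fold threshold, and 0 with treat (1 at an unadjusted p under 0.05), with the replicate block (8) and whenever 1 array was left out (range 0 to 0). By gene, 0 became 1 with no fold threshold and 1 with the mean over probe sets, where Tfap2c was at 1.17. Over all probe sets 172 calls became 260 with a trend, 439 with no fold threshold, 8 with treat, 0 with the replicate block (8358 at an unadjusted p under 0.05) and 0 to 9 without 1 array. Same-numbered embryos share only a number (r of deviations 0.06). The 3 calls in the related lists, under alternatives chosen after seeing the data, became 1 with the bright filter, 0 with treat, 0 with the block and 0 to 0 without 1 array. Of values for single genes under the alternatives other than treat and no fold threshold, 592 kept direction and call, 15 lost a call (Pou5f1, Nanog and Sycp3 under the block and without each array), 1 gained one and 8 turned direction. Pou5f1, Nanog and Sycp3 also lost their calls under treat. The filter to bright probe sets left out Nanog and Sycp3, so these genes were not tested there. Of the germ cell and related genes, Tfap2c and Fut9 gained a call with no fold threshold. The markers Plac1 and Epcam, also short of 2-fold, would pass by the same rule. With only probe sets without shared sequence, 0 germ cell genes were called (5 at an unadjusted p under 0.05), Tfap2c was at 0.99 (adjusted p = 0.0427), Dppa2 at 0.43 and Ascl2 at 0.06, and Kit had no such probe set. Without 1 array, Alpl ran from -0.094 to 0.26, Dnmt3a from -0.024 to 0.017, Kitl from -0.077 to 0.022, Tpbpa from -0.056 to 0.26 and Ddx4 from -0.033 to 0.65. Dnmt3a, at -0.0033 in the report's setting, was also above 0 without mutant replicate 2 (0.0079), with renewed quantile normalisation (0.011) and with the mean over probe sets (0.36). The causes were not tested.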

Other observations

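Dnmt3a, the de novo DNA methyltransferase and one of the genes listed as silenced in germ cell precursors, gave different answers on its 5 probe sets. The brightest differed by -0.0033 on the log2 scale between genotypes. Another read 8.70 and 8.77 in wildtype and 9.96 and 9.93 in mutants and rose by 1.22 ± 0.07 (limma adjusted p = 0.0136). A further one was 0.84 ± 0.08 higher at an adjusted p of 0.0335, short of 2-fold, and the others read -0.21 and -0.03.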
